A study of Homo sapiens with 8 samples.

Results

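The genes described here are 10 members of the bone morphogenetic protein (BMP) pathway, chosen by gene symbol: the ligands BMP2, BMP4 and BMP7, the type I receptor BMPR1A, the target genes ID1, ID2, ID3 and ID4, and the pathway inhibitors BAMBI and SMAD6, which are themselves targets. They are 10 of the 35940 gene symbols in the expression table, and each had 1 Ensembl row. All 10 were among the 14908 genes that reached 1 TPM in at least 2 of the 8 libraries and were tested. TPM is a share of a library's transcripts scaled for transcript length, so levels can be set side by side between genes.

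ESI017, an established human embryonic stem cell line, was used as wild type in every sample. The cells were differentiated in N2B27, a serum-free medium used for neural cells, to which SB (10 µM) and LDN (100 nM) had been added, and recombinant human WNT3A (300 ng/mL) followed at 34 h, in a protocol labelled as leading to a posterior neural fate. Poly(A) RNA was sequenced at 34, 42, 50 and 72 h, with 2 libraries at each time point, called replicate 1 and replicate 2, which the labels also number as batches and of which the series' design describes 1 as an independent biological replicate. The 34 h group had SB and LDN and was taken at the hour of WNT3A addition. Whether its cells were harvested before or after WNT3A went in is not given in the sources used here, and this holds for the starting point of each comparison with 34 h. Per the labels, the 42, 50 and 72 h groups had SB and LDN with 8, 16 and 38 h of WNT3A. All 8 libraries carried LDN, no sample without LDN and no later sample without WNT3A was analysed here, and time in culture, WNT3A and LDN cannot be told apart in any comparison.

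BMP ligands bring type I and type II receptors together, and the type I receptor then phosphorylates SMAD1, SMAD5 and SMAD9, which enter the nucleus with SMAD4 and switch on target genes, the ID genes among the most direct. ID proteins lack a DNA-binding region of their own and bind E proteins, keeping these from pairing with the basic helix-loop-helix factors that drive differentiation. During neural induction BMP signalling turns ectoderm away from the neural fate, and in neural protocols LDN usually stands for an inhibitor of BMP type I receptors and SB for an inhibitor of activin, nodal and TGF-beta type I receptors, although the labels spell out neither.

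Each library had 13860 to 14004 genes at 1 TPM or more, mitochondrially encoded genes held 8.70% to 11.2% of the TPM, and the depth of the libraries is unknown because TPM keeps no record of it. The summed level of 6 pluripotency markers lay between 3415 and 3440 TPM in the 34 h libraries and between 1863 and 1950 TPM in those of 72 h. At 72 h against 34 h 3 of the 6 were called lower, POU5F1 among them (means of 1159 and 371 TPM), 1 (SOX2) was called higher (log2 change 0.64, limma adjusted p = 0.00117), and LIN28A, at means of 902 and 1024 TPM, made up the largest part of the 72 h sum. SOX2 is in this list and in the next, with means of 217 TPM at 34 h and 340 TPM at 72 h. The sum of 7 neural progenitor markers was 381 to 400 TPM at 34 h and 691 to 741 TPM at 72 h. SOX1 was at a mean of 1.89 TPM and then 50.8 TPM. At 72 h against 34 h, 5 of the 6 tested markers of this list were called higher, and SOX3 was not called (log2 change -0.11). HES5, which was not tested, was at 0.142 and 0.182 TPM at 34 h and listed at 0 at 72 h. Mesoderm markers (8 genes) summed to 0.691 to 1.07 TPM at 34 h, 4.40 to 5.21 TPM after 8 h of WNT3A, 3.30 to 4.46 TPM after 16 h and 1.69 to 2.07 TPM after 38 h, and MSGN1 was listed at 0 throughout. Endoderm markers (6 genes) summed to at most 8.87 TPM in any library and SOX17 was listed at 0 throughout. CXCR4, a chemokine receptor gene in this list, was at means of 1.43, 5.50, 2.34 and 6.77 TPM over the 4 time points and was called higher at 72 h than at 34 h (limma adjusted p = 0.000922), while APOA2 was at 1.49 and 6.95 TPM at 34 h and listed at 0 at 72 h. Amnion and surface ectoderm markers (8 genes) summed to 37.1 to 42.9 TPM in the 34 h libraries, against 6.11 to 8.69 TPM at 72 h. KRT7 made up most of each of these sums. VTCN1 was at 0.930 and 1.72 TPM at 34 h and at 0.745 and 0.897 TPM at 72 h. GABRP and TFAP2A reached 1.63 and 0.795 TPM, each in 1 library of 42 h, while GATA3 and TP63 stayed under 0.1 TPM in every library. Neural crest markers (6 genes) summed to 10.9 to 12.4 TPM in the 34 h libraries, against 14.3 to 16.7 TPM at 72 h, with PAX3 and SNAI2 higher and FOXD3 lower at 72 h. Each of these 3 passed the filter on low values (1 TPM in 2 or more libraries) only through the time points where it was high, and so had to differ. These markers moved over the same hours as the BMP pathway genes, and their part in the changes below was not tested. In such bulk samples fewer cells of a type and less RNA per cell cannot be told apart.

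From 34 to 72 h, ID2 and SMAD6 rose and ID1, ID4, BAMBI, BMP4 and BMP7 fell, while ID3, BMP2 and BMPR1A were not called. In limma's test at an adjusted p under 0.05, 7 of the 10 genes were called, 2 higher and 5 lower, against 24.0% of all tested genes (12.7% higher and 11.3% lower). The 1900 higher and 1678 lower calls over all genes became 1649 and 1883 with TMM scaling and 1638 and 1796 after quantile normalization. ID4, BAMBI and SMAD6, 3 of the 7, were under 1 TPM in both libraries of either 34 h or 72 h and passed the filter through other time points, where they were higher, so the count is a description. The median log2 change of the 10 genes was -0.50, beside 0.06 over all tested genes. In the shorter steps, 1 of 10 was called between 34 and 42 h (ID2, higher), against 2.58% of tested genes, and 2 of 10 between 50 and 72 h (ID2 higher and BAMBI lower), against 7.33%. Between 42 and 50 h limma called 0 of 10, against 0.0939% of tested genes, while 2 of the 10 had an unadjusted p under 0.05, against 9.35% of tested genes. Over any of the 4 time points limma's moderated F-test called 7 of 10 (ID1, ID2, ID4, SMAD6, BMP2, BMP4 and BMP7), against 17.4% of tested genes, and 4 of 10 (ID2, SMAD6, BMP4 and BMP7) with the replicate number as a block.

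Of these counts, those of 72 h against 34 h, of 72 h against 50 h and over any time point depended on single libraries. In each of these, the calls over all tested genes also fell when a 34 or 72 h library was left out. The shares over all tested genes given above are therefore not those of such fits. The 72 h against 34 h count was 4 without 34 h replicate 1, without 34 h replicate 2 and without 72 h replicate 1, and ID2, SMAD6, BMP4 and BMP7 were called whichever library was left out. The count of 72 h against 50 h was 0 without 72 h replicate 1 and 1 (ID2) without any 1 of the 34 or 50 h libraries or 72 h replicate 2. The count over any time point fell to 1 (ID2) without either 34 h library or without 72 h replicate 1, was 2 without 72 h replicate 2, 4 without 50 h replicate 1, and 5 without any of the 3 remaining libraries.

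**Figure D1:**
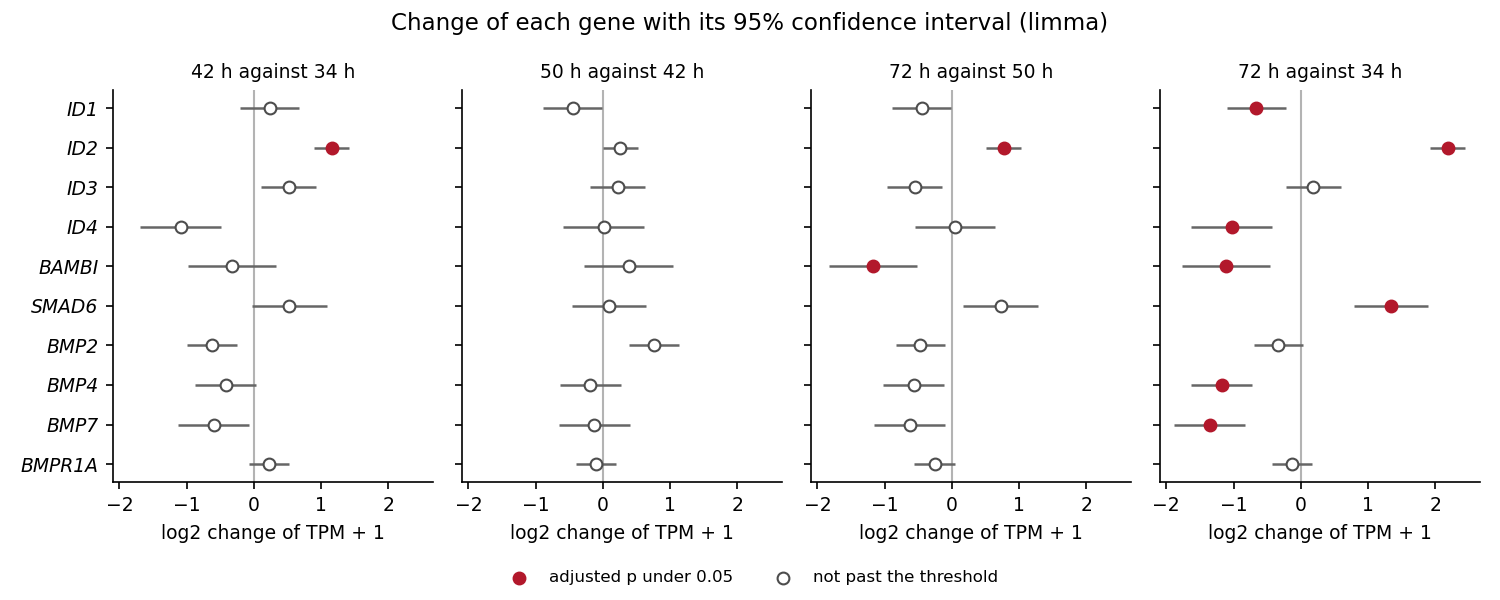
Log2 change of TPM + 1 (horizontal axis) of the 10 genes in 4 comparisons, with points for limma's estimate and bars for its 95% confidence interval. Filled points passed an adjusted p under 0.05: ID2 in 3 panels, BAMBI in 2, and ID1, ID4, SMAD6, BMP4 and BMP7 only in the panel of 72 h against 34 h.

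By level, ID3 stood above the other 9 genes at every time point and lay at the 95.8th percentile of tested genes at 34 h. BMPR1A, ID2 and BMP7 followed at 34 h, where the libraries of ID2 and BMP7 overlapped. From 42 h on the order of the leading 4 was ID3, ID2, BMPR1A and BMP7, with no overlap between neighbours. ID2 moved from the 65.5th percentile at 34 h to the 92.5th at 72 h. BMP2, BMP4 and ID1 lay between 2.23 and 7.32 TPM in mean level throughout, and BMP4 and BMP2 overlapped at 42 h. ID4, BAMBI and SMAD6 stayed at means of at most 2.50 TPM, and at 42 h the libraries of BAMBI and SMAD6, and of SMAD6 and ID4, overlapped. All other neighbours in the order were apart in their libraries at each time point.

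ID2, an inhibitor of E protein function found in many progenitor cells, was the ID gene with the clearest rise. It lies on the plus strand of chromosome 2, from 8678845 to 8684453 (GRCh38, GENCODE release 29). In order of time (34, 42, 50 and 72 h, as for the other genes below) its level was 24.3, 59.3, 73.7 and 129.9 TPM in replicate 1 and 29.3, 62.3, 72.0 and 119.9 TPM in replicate 2. The libraries of the 4 time points did not overlap, and every time point was above the one before. The mean was 2.27-fold higher at 42 h than at 34 h, a log2 change of 1.16 ± 0.11 (SE, limma adjusted p = 0.00143), and 4.66-fold higher at 72 h (log2 change 2.18 ± 0.11, adjusted p = 1.13e-05, 2.37 and 1.99 within replicates 1 and 2). The step from 50 to 72 h, 1.71-fold, was also called (0.77 ± 0.11, adjusted p = 0.00644), but not without 72 h replicate 1 (0.71, adjusted p = 0.0682). The step from 42 to 50 h was 0.26 ± 0.11 and was not called (adjusted p = 0.546).

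ID3, the most abundant ID transcript here, lies on the minus strand of chromosome 1, from 23557918 to 23559794. It was at 236, 336, 412 and 214 TPM in replicate 1 and 195, 281, 313 and 280 TPM in replicate 2. The highest values were at 42 and 50 h, and the 72 h libraries lay among those of 34 and 42 h. ID3 was called in none of the comparisons made between 2 time points, and 50 h against 34 h and 72 h against 42 h were not tested. The F-test over all time points did not call ID3 (adjusted p = 0.0656). That test did call it among genes averaging at least 5 TPM and without 50 h replicate 2. The log2 change was 0.52 ± 0.18 from 34 to 42 h (limma adjusted p = 0.241) and -0.55 ± 0.18 from 50 to 72 h (adjusted p = 0.113), where replicate 1 gave -0.94 and replicate 2 gave -0.16. At 72 h against 34 h it was 0.19 with a 95% confidence interval from -0.22 to 0.60, and the 2 replicates differed in sign (-0.14 and 0.52).

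ID1, the ID gene most often used as a readout of BMP signalling, was far less abundant than ID3. It lies on the plus strand of chromosome 20, from 31605283 to 31606515. Its level was 5.90, 7.90, 4.56 and 3.15 TPM in replicate 1 and 5.19, 5.65, 4.71 and 3.11 TPM in replicate 2. Both 72 h libraries were below all others, while 34 and 42 h overlapped. ID1 was 1.77-fold lower in mean at 72 h than at 34 h (-0.66 ± 0.19 on the log2 scale, limma adjusted p = 0.0396). This call was lost when any 1 of the 34, 50 or 72 h libraries was left out (adjusted p from 0.0526 to 0.164), with no filter on low values (0.0827) or with the 2 time points fitted alone (0.0519). None of its 3 single steps was called (0.24 from 34 to 42 h, -0.45 from 42 to 50 h and -0.45 from 50 to 72 h).

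ID4, an ID gene with a more restricted pattern, in the nervous system among other tissues, lies on the plus strand of chromosome 6, from 19837386 to 19840684. It was at 2.29, 0.917, 0.619 and 0.823 TPM in replicate 1 and 2.71, 0.403, 0.689 and 0.604 TPM in replicate 2. The 34 h libraries alone were above 1 TPM, and the 3 later time points overlapped. ID4 therefore passed the filter on low values only through the time point where it was high, and a gene that passed in this way had to differ. The mean was 3.50-fold lower at 72 h than at 34 h (log2 change -1.03 ± 0.26, limma adjusted p = 0.0240), a call that did not hold without 72 h replicate 1 (0.0777) or 72 h replicate 2 (0.122), and without either 34 h library ID4 was not tested. Most of the difference was already there at 42 h (-1.09 ± 0.26), where the adjusted p was 0.0850, or 0.0295 with a variance that did not follow the mean level.

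**Figure D2:**
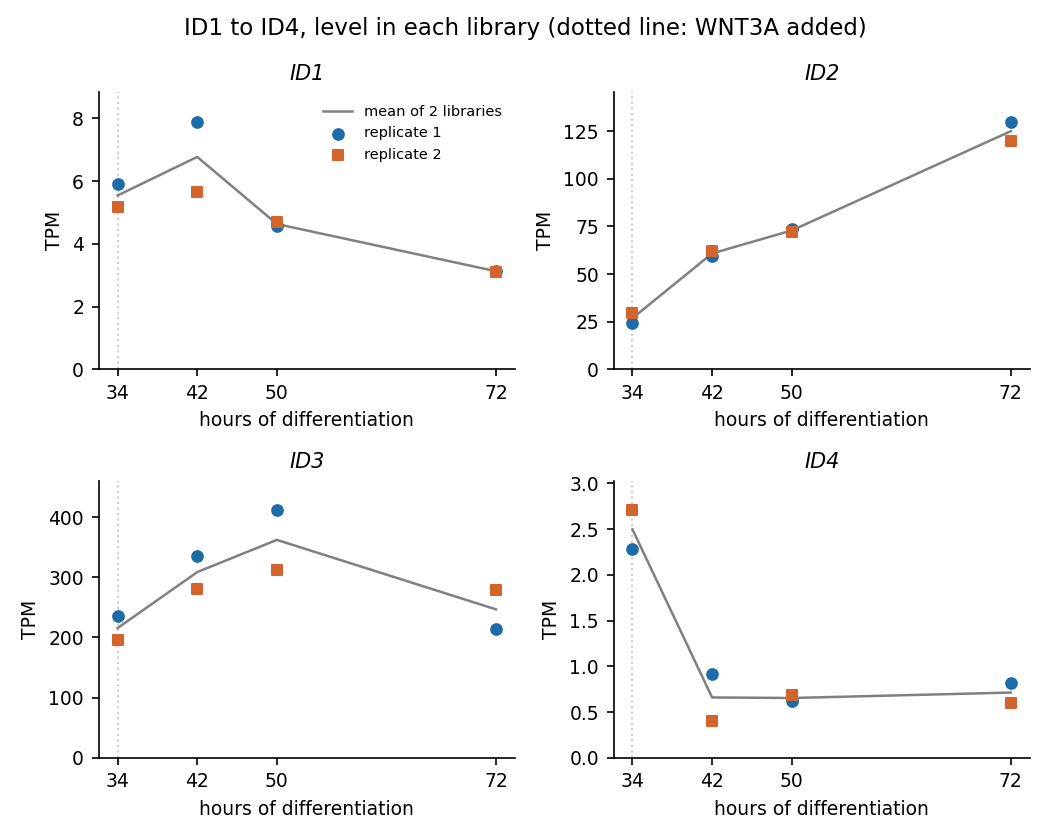
TPM (vertical axis, a separate linear scale from 0 for each gene) of ID1 to ID4 against hours of differentiation, with circles for replicate 1, squares for replicate 2 and a line through the mean of 2 libraries; the dotted line marks WNT3A addition at 34 h. ID2 climbs to 129.9 and 119.9 TPM at 72 h, ID3 peaks in mean at 50 h, ID1 ends at 3.15 and 3.11 TPM, and ID4 is above 1 TPM only at 34 h.

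The share of ID2 in the summed level of the 4 ID genes was higher at 72 h than at 34 h in both replicates and that of ID3 was lower, while the level of ID3 itself was not called as changed; the shares carry no test. The summed level of the 4 genes was 251 ± 25.3, 377 ± 38.6, 440 ± 70.9 and 376 ± 39.4 TPM at the 4 time points in order (SD, n = 2). From 34 to 72 h, the part of the sum made up by ID3 went from 87.9% to 61.5% in replicate 1 and from 84.0% to 69.3% in replicate 2. For ID2 it was 9.06%, 14.7%, 15.0% and 37.4% in replicate 1 and 12.6%, 17.8%, 18.4% and 29.7% in replicate 2, in order of time. The ID2 share was higher in both 72 h libraries than in any other, and the 42 and 50 h shares overlapped. ID1 and ID4 together never reached 4% of the sum. The ratio of ID3 to ID2 was 8.18 ± 2.15 (SD, n = 2) at 34 h and 1.99 ± 0.485 at 72 h, and that of ID2 to ID1 was 4.89 ± 1.09 and 39.9 ± 1.94.

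**Figure D3:**
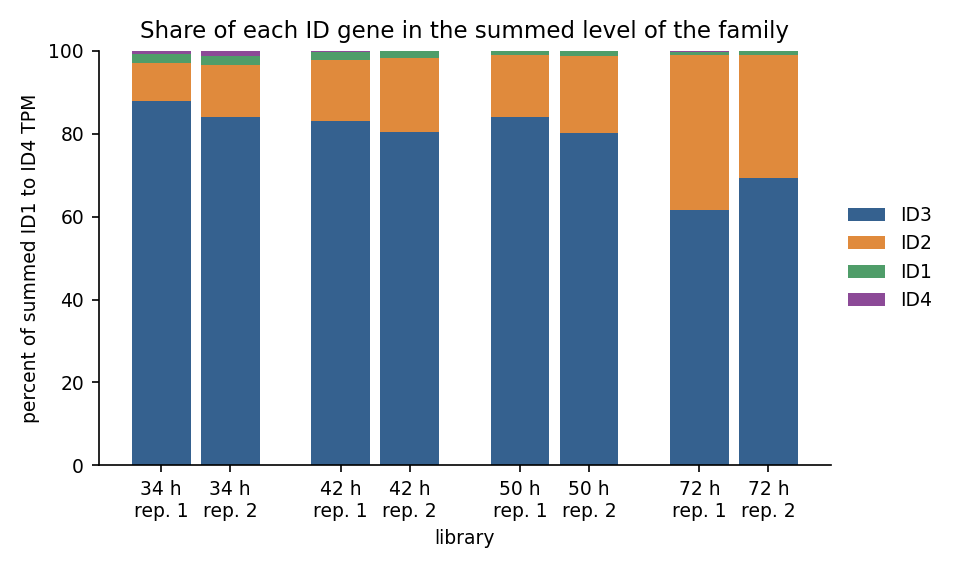
Percent of the summed ID1 to ID4 TPM (vertical axis, from 0 to 100) held by each ID gene, with 1 stacked bar per library. ID3 takes 80.2% or more in all libraries from 34 to 50 h and 61.5% and 69.3% at 72 h, and ID2 takes most of the difference.

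The stretch just before the start of a gene was read to set the sequences before the ID genes beside their levels. RefSeq's promoter table (GRCh38.p14) had entries for 8 of the 10 genes, and BMP2 and BMP7 are not among them. In the 250 bases before each start, on both strands, the letters searched were GGCGCC and CAGAC, which SMAD proteins can bind, CTTTGA and CTTTGT, which TCF and LEF factors of the WNT pathway can bind, and CANNTG, the E-box that E proteins and their partners can bind. Of all 35116 promoters of this length, GGCGCC was in 16.4%, CAGAC in 38%, CTTTGA in 11.2%, CTTTGT in 13.7% and CANNTG in 61.8%; the motifs searched do not overlap each other in the stretches shown. ID1 and SMAD6 had no match. ID4, highest at 34 h, had CAGAC and a CANNTG match, and the 250 bases before its start (chr6:19837120-19837369, plus strand) are shown whole with both matches in capitals.
ID4: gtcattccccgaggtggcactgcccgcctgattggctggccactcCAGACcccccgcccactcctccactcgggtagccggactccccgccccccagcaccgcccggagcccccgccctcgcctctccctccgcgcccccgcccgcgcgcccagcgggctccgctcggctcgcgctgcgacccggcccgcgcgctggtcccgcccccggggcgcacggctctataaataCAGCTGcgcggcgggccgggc
ID2, the ID gene that rose, had a CANNTG match 205 bases before its start, and the 30 bases around it (chr2:8681839-8681868, plus strand) show it in capitals.
ID2: tatttaccacccCAGCTGggctcgcgcccc
The same 6 letters, CAGCTG, stand in capitals near the end of the ID4 stretch, and they were in 14% of all promoters. ID3, the most abundant of the 4, was the only one of the 8 genes with an entry that had a CTTTGA match, 179 bases before its start (chr1:23559663-23559692, minus strand), and it also had CAGAC 147 bases before it (chr1:23559631-23559660, minus strand).
ID3, CTTTGA: cgcttcctcattCTTTGAatccgcggctcc
ID3, CAGAC: ggtcttcggcgtCAGACcagccggaggaag
By GENCODE release 29 the ID4 stretch lies before the gene, while the ID3 stretches and the ID2 stretch lie within the spans given above for these genes. Such a match describes letters in a window and is not evidence of binding.

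Transcripts of the 3 listed E proteins that ID proteins bind were at 40 TPM or more in every library. TCF4 was at 42.7, 65.0, 81.7 and 65.2 TPM in replicate 1 and 40.3, 69.3, 74.9 and 60.9 TPM in replicate 2. Its libraries at 34 h were below all later ones, and it rose from 34 to 42 h (log2 change 0.68 ± 0.10, limma adjusted p = 0.0103) and from 34 to 72 h (0.59 ± 0.10, adjusted p = 0.00409). The earlier call was lost without any 1 of the 34 or 42 h libraries (0.0553 to 0.0959) and with the 2 time points fitted alone (0.0589). TCF3 had a mean of 268 TPM at the start and of 345 TPM at 72 h (0.38, adjusted p = 0.173), and TCF12 of 50.7 and 52.0 TPM (0.04, adjusted p = 0.822). Of these 3 genes, 1 was called higher and none lower at 72 h against 34 h, beside 24.0% of all tested genes.

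SMAD6, the inhibitory SMAD that competes with the receptor-activated SMADs, and BAMBI, a pseudo-receptor without a kinase domain, moved in opposite directions. SMAD6 lies on the plus strand of chromosome 15, from 66702228 to 66782848. It was at 0.458, 1.10, 1.33 and 2.47 TPM in replicate 1 and 0.297, 0.871, 0.911 and 2.50 TPM in replicate 2. The 34 h libraries were the lowest and the 72 h libraries the highest, with 42 and 50 h overlapping between them. SMAD6 passed the filter on low values only through later time points. It was 6.59-fold higher in mean at 72 h than at 34 h (limma's log2 change 1.34 ± 0.24, adjusted p = 0.00539), and no single step was called (0.53 from 34 to 42 h, 0.09 from 42 to 50 h and 0.73 from 50 to 72 h).

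BAMBI lies on the plus strand of chromosome 10, from 28677342 to 28682939. It was at 2.17, 1.899, 2.19 and 0.175 TPM in replicate 1 and 1.76, 0.931, 1.99 and 0.595 TPM in replicate 2. Both 72 h libraries were below the other 6. BAMBI passed the filter on low values only through time points before 72 h, where it was higher. The 34 h libraries overlapped those of 42 h and those of 50 h, and the 42 h libraries were below those of 50 h. The mean was 5.11-fold lower at 72 h than at 34 h (limma's log2 change -1.11 ± 0.29, adjusted p = 0.0254) and 5.43-fold lower than at 50 h (-1.17 ± 0.29, adjusted p = 0.0468). These folds turned on the low 72 h values: without 72 h replicate 1 they were 3.31 and 3.51, and without 72 h replicate 2 they were 11.3 and 12.0. The fall from 50 h was not called with the replicate number as a block (0.0612), with no filter (0.0724), after quantile normalization (0.0540), with the 2 time points alone (0.0881), or without any 1 of the 34, 50 or 72 h libraries (0.0756 to 0.239). The fall from 34 h was not called without 34 h replicate 1 (0.120), 34 h replicate 2 (0.0798) or 72 h replicate 1 (0.140). Of the 8 genes with a promoter entry, BAMBI had the most matches to the SMAD-type letters: GGCGCC at 209, 196 and 181 bases before its start and CAGAC at 189 and 140 bases before it. Part of that stretch (chr10:28677321-28677350, plus strand), which runs into the first exon of GENCODE release 29, is shown with 2 of the GGCGCC matches and 1 CAGAC in capitals.
BAMBI: gccgGGCGCCcCAGACgccGGCGCCgctcg
Of all promoters 0.527% held 3 or more GGCGCC, a share that was looked up after the BAMBI matches were seen, with the number 3 taken from BAMBI itself.

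Other genes known as BMP targets were mostly near 0. Of 14 listed, 6 passed the filter, and from 34 to 72 h 2 were called higher and none lower, against 24.0% of all tested genes (12.7% higher), with a median log2 change of 0.45 beside 0.06 for all tested genes. MSX1, a homeobox gene of dorsal neural and mesenchymal cells, was listed at 0 in both 34 h libraries and then measured 1.98, 3.74 and 1.897 TPM in replicate 1 and 2.12, 3.61 and 1.62 TPM in replicate 2. It rose from 34 to 42 h (1.61 ± 0.21, limma adjusted p = 0.00620) and was still higher at 72 h than at 34 h (1.46, adjusted p = 0.00214); without 42 h replicate 2 the earlier call was lost (0.0543). MSX2, its close relative, went from 0.285 to 2.47 TPM in replicate 1 and from 0.260 to 3.82 TPM in replicate 2 by 72 h (1.69 ± 0.28, adjusted p = 0.00358). ATOH8, a basic helix-loop-helix factor, was at 0.584, 5.23, 6.24 and 1.06 TPM in replicate 1 and 0.608, 4.45, 4.26 and 1.54 TPM in replicate 2. It rose from 34 to 42 h (1.87 ± 0.24, adjusted p = 0.00498) and fell from 50 to 72 h (-1.43, adjusted p = 0.0104). The first of these calls was lost without 42 h replicate 1 (adjusted p = 0.0508) and the other without 50 h replicate 1 (0.0594) or 72 h replicate 1 (0.0860) and with the 2 time points fitted alone (0.0622). MIXL1, a mesoderm marker, had means of 0.112, 1.49, 1.64 and 0.312 TPM over the same time points, and its part in the ATOH8 values was not tested. GATA2, GATA3, TFAP2A, DLX3, DLX5, HAND1, ISL1 and NKX2-5 stayed under 1 TPM in every library. MSX1, MSX2 and ATOH8 passed the filter only through later time points, so each had to differ from 34 h. TFAP2C, the most abundant gene of the list, had means of 13.2 TPM at 34 h and 7.60 TPM at 72 h (-0.68, 95% interval -1.33 to -0.04, adjusted p = 0.117). HEY1 was near 1 TPM or below throughout, and its change from 34 to 72 h was -0.28 (adjusted p = 0.519).

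Of the ligands, BMP4 and BMP7 fell by 72 h and BMP2 was called in no comparison. BMP4, a secreted ligand that drives amnion and mesoderm fates in stem cell cultures, lies on the minus strand of chromosome 14, from 53949736 to 53958761. It was at 6.41, 4.84, 3.29 and 2.46 TPM in replicate 1 and 6.13, 4.04, 4.30 and 1.99 TPM in replicate 2. The 34 h libraries were the highest and the 72 h libraries the lowest, with 42 and 50 h overlapping. BMP4 was 2.81-fold lower in mean at 72 h than at 34 h (limma's log2 change -1.17 ± 0.20, adjusted p = 0.00393, -1.10 and -1.25 within replicates 1 and 2).

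BMP7, a ligand that can pair with BMP2 or BMP4, lies on the minus strand of chromosome 20, from 57168748 to 57266629. It was the most abundant of the 3, at 27.3, 16.4, 17.8 and 7.53 TPM in replicate 1 and 22.1, 15.3, 11.7 and 10.7 TPM in replicate 2. The 34 h libraries were above all others and the 72 h libraries below, with 42 and 50 h overlapping. BMP7 was 2.71-fold lower in mean at 72 h (-1.36 ± 0.23, limma adjusted p = 0.00401), by 1.73 in replicate 1 and 0.98 in replicate 2 on the log2 scale. The steps from 34 to 42 h (-0.60) and from 50 to 72 h (-0.63) were not called for BMP7, nor for BMP4 (-0.42 and -0.57).

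BMP2, the ligand closest to BMP4 in sequence, lies on the plus strand of chromosome 20, from 6767664 to 6780280. It was at 6.58, 4.23, 6.999 and 4.88 TPM in replicate 1 and 6.57, 3.59, 7.64 and 5.15 TPM in replicate 2. The libraries of the 4 time points did not overlap, and the order from low to high was 42, 72, 34 and 50 h. The changes were -0.63 ± 0.16 from 34 to 42 h (limma adjusted p = 0.106), 0.76 ± 0.16 from 42 to 50 h (0.175), -0.47 ± 0.16 from 50 to 72 h (0.133) and -0.33 with a 95% interval from -0.70 to 0.04 from 34 to 72 h (0.174). The F-test over all time points did call it (adjusted p = 0.0381), but this call was lost with the replicate number as a block, with no filter, among genes averaging at least 5 TPM, and in each of the 8 fits that left out 1 library.

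The 3 ligands summed to 37.5 ± 3.95, 24.2 ± 1.80, 25.9 ± 3.16 and 16.3 ± 2.08 TPM at the 4 time points in order (SD, n = 2). BMP7 held 65.6 ± 3.05% of the sum at 34 h and 55.3 ± 6.56% at 72 h. BMP2 went from 16.3% to 32.8% of the sum in replicate 1 and from 18.9% to 28.9% in replicate 2.

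Of 12 other BMP, GDF and AMH ligand genes, 4 passed the filter, and at 72 h against 34 h 2 were called higher and 1 lower, against 24.0% of all tested genes, with a median of 0.47 beside 0.06; BMP5 and BMP6 are 2 of these 3. AMH, a ligand of the same superfamily that also acts through BMP type I receptors, went from 62.7 to 92.2 TPM in replicate 1 and from 46.1 to 91.5 TPM in replicate 2 (0.76 ± 0.16, limma adjusted p = 0.0116). BMP5 went from 0.0404 to 2.38 TPM in replicate 1 and from a listed 0 to 1.86 TPM in replicate 2 (1.61 ± 0.27, adjusted p = 0.00375) and passed the filter only through its 72 h libraries. BMP6 fell from 2.13 to 0.378 TPM in replicate 1 and from 1.77 to 0.336 TPM in replicate 2 (-1.12 ± 0.23, adjusted p = 0.0109) and passed the filter only through time points before 72 h, where it was higher. The AMH call was lost without 34 h replicate 2 (0.0663) or either 72 h library (0.0621 and 0.0576), and the BMP6 call without 34 h replicate 1 (0.0701) or either 72 h library (0.0537 and 0.0586). BMP10, BMP15 and GDF2 were listed at 0 in all 8 libraries.

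**Figure D4:**
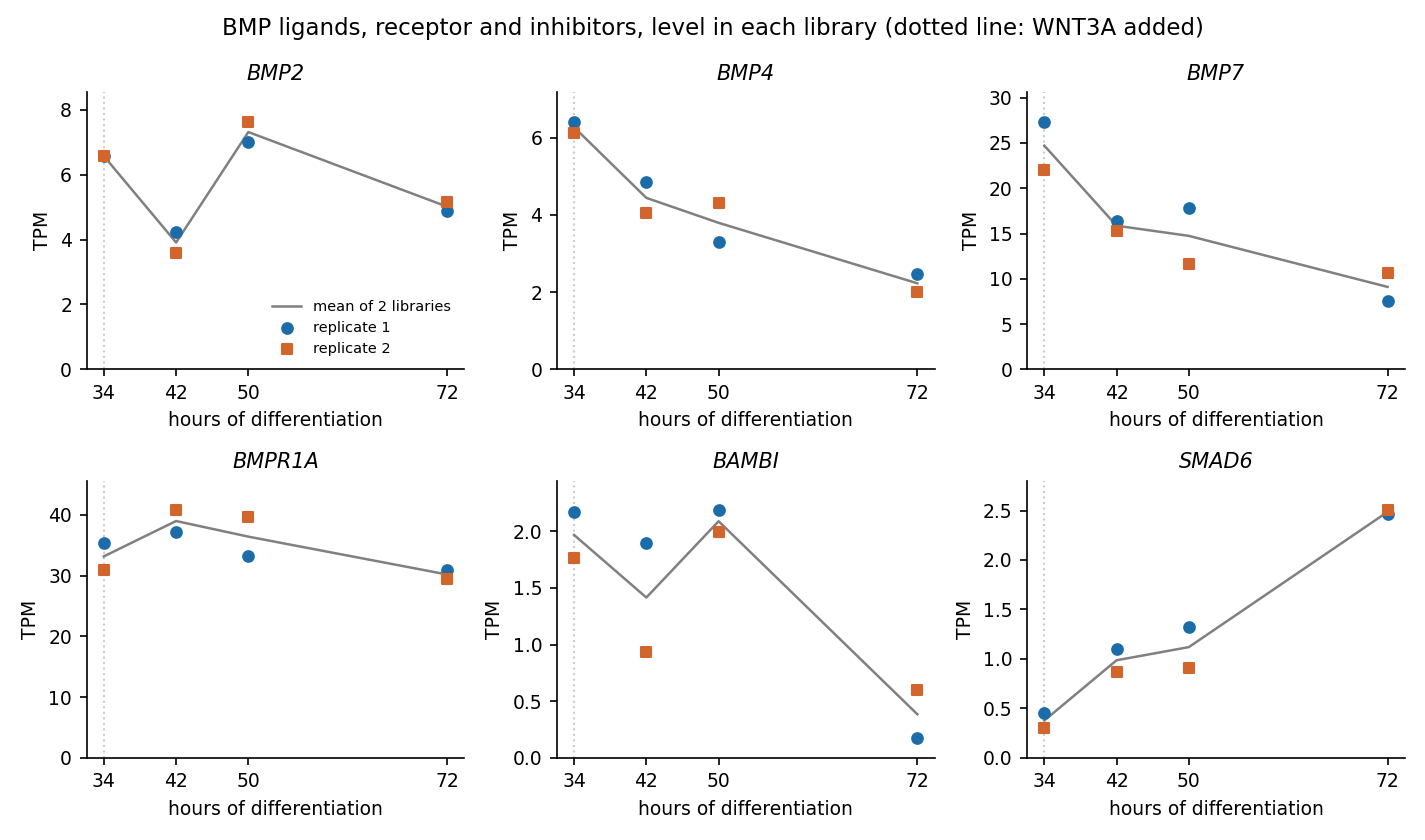
TPM (vertical axis, a separate linear scale from 0 for each gene) of BMP2, BMP4, BMP7, BMPR1A, BAMBI and SMAD6 against hours of differentiation, with circles for replicate 1, squares for replicate 2 and a line through the mean of 2 libraries; the dotted line marks WNT3A addition at 34 h. BMP4 and BMP7 are lowest at 72 h, BMP2 is lowest at 42 h, BMPR1A keeps within 29.5 to 40.7 TPM, and BAMBI and SMAD6 end at opposite extremes of their own ranges.

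BMPR1A, the type I receptor that BMP2 and BMP4 bind with high affinity, passed no test. It lies on the plus strand of chromosome 10, from 86756601 to 86932838, and was at 35.4, 37.2, 33.1 and 30.9 TPM in replicate 1 and 30.9, 40.7, 39.7 and 29.5 TPM in replicate 2. The 42 and 50 h libraries overlapped and reached the highest values, and the 2 libraries of 50 h lay farther apart than the means of 34 and 72 h. The log2 change of 72 h against 34 h was -0.13, with a 95% interval from -0.43 to 0.17 (limma adjusted p = 0.512). Its pseudogenes BMPR1AP1 and BMPR1AP2, which could share reads with it, reached 0.129 and 0.370 TPM at most.

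Among 11 other receptors and co-receptors, 8 passed the filter, and 2 were called higher and none lower at 72 h against 34 h (median 0.30), a share near the 24.0% of all tested genes. The 2 were RGMA and RGMB, membrane-anchored co-receptors that bind BMP ligands and neogenin. RGMB was at 17.6, 48.1, 74.9 and 109.6 TPM in replicate 1 and 15.4, 45.4, 62.3 and 97.01 TPM in replicate 2, with no overlap between time points. It rose from 34 to 42 h (1.45 ± 0.13, limma adjusted p = 0.000946), from 50 to 72 h (0.59, adjusted p = 0.0323) and over the whole course (2.58, adjusted p = 9.18e-06). RGMA went from 72.1 to 152 TPM in replicate 1 and from 60.8 to 167 TPM in replicate 2 (1.25 ± 0.13 over the whole course, adjusted p = 0.000323). The RGMB call from 50 to 72 h was lost without any 1 of the 42 or 72 h libraries or without 50 h replicate 2 (0.0536 to 0.203), with no filter (0.0609), with a variance that did not follow the mean level (0.0651) and with the 2 time points alone (0.101), and those of the whole course held whichever library was left out. The type II receptor genes BMPR2 (means of 3.37 and 3.93 TPM), ACVR2A (13.7 and 27.1 TPM, adjusted p = 0.0910) and ACVR2B (20.1 and 27.3 TPM, adjusted p = 0.0840) were not called between 34 and 72 h, nor was the type I receptor gene ACVR1 (7.14 and 6.61 TPM). BMPR1B stayed under 1 TPM in every library.

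Of 13 SMADs and their regulators, 12 passed the filter, and at 72 h against 34 h 2 were called higher and 1 lower (median 0.06, as for all tested genes), also near the 24.0% of all tested genes. SMAD1, a receptor-activated SMAD, had means of 22.8 and 22.6 TPM (-0.01, 95% interval -0.31 to 0.29), and SMAD4, the common partner, 96.3 and 89.7 TPM (-0.10, adjusted p = 0.568). SMAD5 was just past the threshold (23.8 and 34.8 TPM, 0.54 ± 0.17, limma adjusted p = 0.0492), and this call was lost without any 1 library other than 34 h replicate 1 (0.0518 to 0.254) and after TMM scaling (0.0597). ZNF423, a zinc finger protein that works with SMADs at BMP target genes, was at 27.8, 60.3, 84.1 and 98.6 TPM in replicate 1 and 22.4, 53.8, 67.9 and 94.6 TPM in replicate 2, with no overlap between time points (1.91 ± 0.14 over the whole course, adjusted p = 6.77e-05). TOB1, an antiproliferative protein that can restrain BMP-activated SMADs, fell from 35.1 to 22.6 TPM in replicate 1 and from 38.7 to 22.4 TPM in replicate 2 (-0.69 ± 0.11, adjusted p = 0.00298). SMAD7, the other inhibitory SMAD, was not called: it went from 0.877 to 1.36 TPM in replicate 1 and from 0.418 to 0.885 TPM in replicate 2 (0.37, 95% interval -0.43 to 1.18, adjusted p = 0.480), and the difference between SMAD6 and SMAD7 was not tested.

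**Figure D5:**
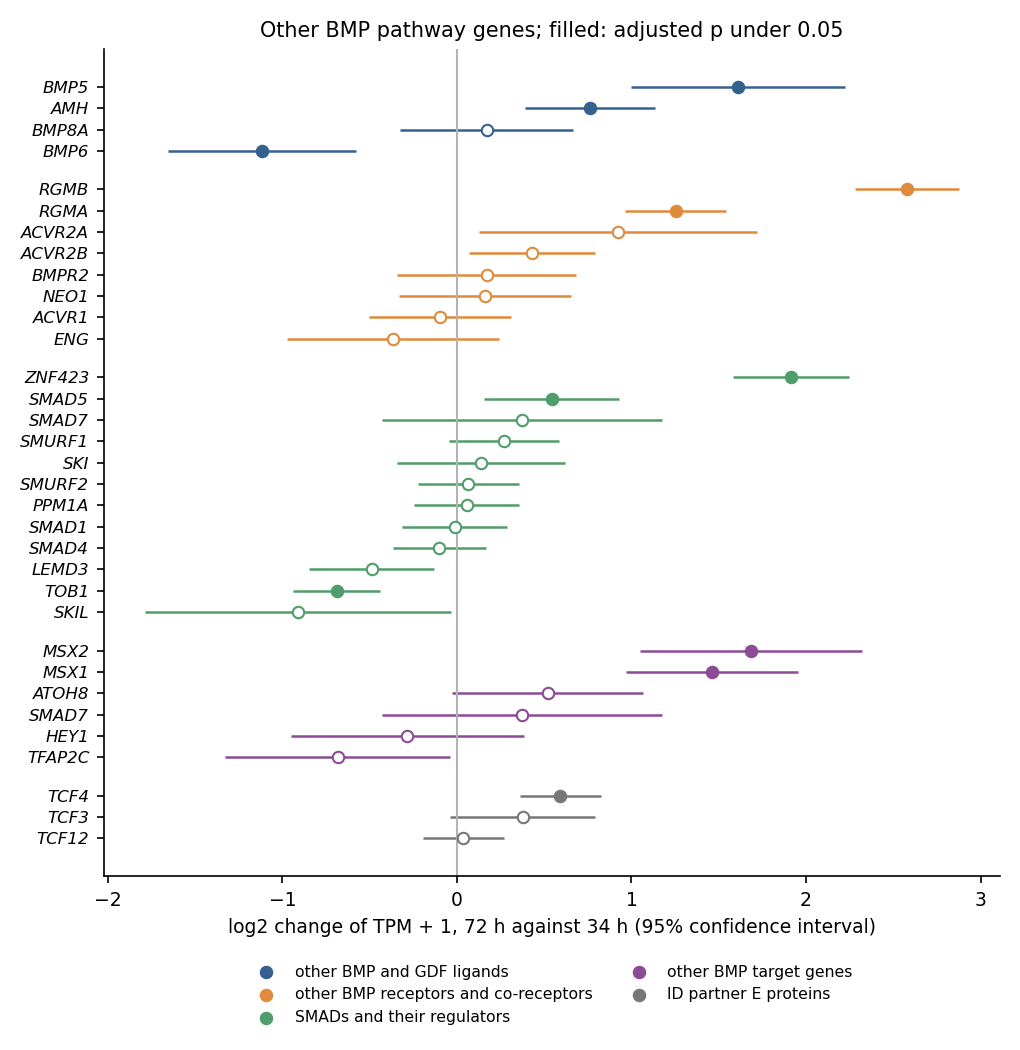
Log2 change of TPM + 1 at 72 h against 34 h (horizontal axis) for the tested genes of 5 lists of other pathway genes, colored by list, with limma's 95% confidence interval; filled points had an adjusted p under 0.05, and SMAD7 appears in 2 lists. RGMB at 2.58 and ZNF423 at 1.91 lie farthest to the right and BMP6 at -1.12 farthest to the left.

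For the 6 genes whose time-point means spanned at least 1 on the log2 scale, the 3 genes most like each in course were taken as those with the smallest root mean square difference over the 8 libraries, after each gene's own mean was subtracted. For ID2 these were CDH2, SEMA5A and ADAMTS19. CDH2, which encodes N-cadherin and was among the neural progenitor markers, was the closest at 0.0976 log2 units and had means of 14.9, 34.6, 41.4 and 71.8 TPM at 34, 42, 50 and 72 h. For SMAD6 they were CLCN2 (0.0580), SCUBE3 (0.0633) and PTMS (0.0684). For BMP4 they were SLC39A14 (0.0682), LRP11 (0.0754) and JUN (0.0921), and for BMP7 ARHGAP22 (0.0831), IRF2BPL (0.109) and ERBB2 (0.109). For ID4 they were MAF (0.118), GHRL (0.133) and RGS2 (0.139), and for BAMBI MFAP4 (0.123), TMEM37 (0.148) and IFFO2 (0.172). No gene was nearest to more than 1 of the 6. Such a likeness describes 8 libraries and carries no test.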

How the data were processed

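Poly(A) RNA sequencing of 8 ESI017 libraries (4 time points, 2 replicates) was used as deposited by the authors: 1 table of TPM per Ensembl gene, 37951 rows, made with Salmon 1.9.0 and GRCh38, per the submitters' processing notes. The annotation, the step from transcripts to genes, strandedness and filters are not given in the sources used here. TPM holds no read counts, so no counting interval could be given, and a rise of 1 abundant gene lowers the share of the others. Rows were summed by symbol. The antisense genes BMP7-AS1, ID2-AS1 and AL022068.1 (opposite ID4) overlap the genes described in GENCODE release 29 and have no row in the table used; without strand, reads from them and from these genes cannot be told apart. AC013564.1 overlaps SMAD6 and RNU1-19P overlaps BMPR1A on the same strand, also with no row, so strand would not separate their reads.

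The 14908 genes that reached 1 TPM in 2 or more libraries were tested with limma 3.58.1 in R 4.3.3 on log2(TPM + 1), which understates changes of low genes. The model had 1 mean per time point over all 8 libraries and a variance that followed the mean level. Adjusted p-values are two-sided Benjamini-Hochberg values over all tested genes, with a threshold of 0.05. The script was tested on simulated data. Fold values are ratios of mean TPM.

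The members and lists were chosen with earlier results of these data known, so counts over them are descriptions. Named were the 10 members, genes of the lists, and the 3 genes nearest in course to each member that spanned at least 1 on the log2 scale. The replicate number pairs libraries because the labels give it as a batch number; deviations of same-numbered libraries correlated across genes at 0.0949 (34 and 42 h), 0.195 (34 and 50 h) and 0.142 (42 and 50 h), and at -0.0445, -0.0779 and -0.104 between 72 h and 34, 42 and 50 h. Alternatives were a pseudocount of 0.1, other filters and scalings, another variance model, the replicate block, fits of the compared time points alone and leaving out each library.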

Additional observations from a re-analysis of the deposited data

How the results depend on the processing

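With 2 libraries per time point and no record of depth, the calls of low genes (ID4, BAMBI, SMAD6) rest on values near 1 TPM. The p-values rest only on the spread between replicates, pooled over the time points and drawn toward that of genes at a similar level. Of the 10 genes, the number called at 42 h against 34 h (1) was 2 with a variance that did not follow the mean level, which added ID4, and 1 in all other fits, leave-one-out fits included (lowest 1, highest 1). The number at 50 h against 42 h was 0 in all fits. The number at 72 h against 50 h (2) was 1 with no filter, with a mean of at least 5 TPM (6 of the 10 genes tested), after quantile normalization, with the compared time points alone and with the replicate block, each time without BAMBI, and ranged from 0 to 2 over the leave-one-out fits. The number at 72 h against 34 h (7) was 3 with a mean of at least 5 TPM, where 6 of the 10 genes were tested, and ranged from 4 to 7 over the leave-one-out fits. The number over any time point (7) was 3 with no filter, 3 among genes averaging at least 5 TPM (BMP7, ID2 and ID3) and 4 with the replicate block, and ranged from 1 to 5 over the leave-one-out fits, with ID3 called without 50 h replicate 2; the other variance model added BAMBI. The replicate block changed no other call. Of 656 values of single genes and comparisons under these alternatives, 622 stayed on the same side of the threshold in the same direction, 24 lost a call, 2 gained one between time points (ID4 at 42 h against 34 h, adjusted p = 0.0295, and SMAD6 at 72 h against 50 h, adjusted p = 0.0330, both with the other variance model) and 8 changed sign, none of them called. The changed signs were at 50 h against 42 h in ID4 (-0.012 after quantile normalization and -0.21 to 0.24 over leave-one-out fits), SMAD6 (-0.053 to 0.23), BMP7 (-0.41 to 0.16) and BMPR1A (-0.23 to 0.026), at 72 h against 50 h in ID4 (-0.044 to 0.14) and at 72 h against 34 h in ID3 (-0.0057 to 0.38), all over leave-one-out fits. The same alternatives were tried for the called genes of the other lists after the data had been seen: of 314 values, 41 lost the call, 13 of these in SMAD5, and none changed sign. Where a left-out library leaves 1 at its time point, the lone library is assumed to vary like the others.

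Over all tested genes, 384 were called at 42 h against 34 h, 171 with the compared time points alone, 256 with no filter and 160 to 190 without a 34 or 42 h library. At 50 h against 42 h 14 were called (9 higher, 5 lower), 0 with these time points alone, 8 with no filter, 7 with the replicate block, 24 with a mean of at least 5 TPM, 27 with the other variance model and 1 to 8 without 1 library; TMM scaling gave 9 higher and 9 lower, quantile normalization 9 and 11, and leaving out mitochondrial genes 9 and 10. At 72 h against 50 h 1093 were called, 367 with these time points alone and as few as 319 without 1 library. At 72 h against 34 h 3578 were called and as few as 1840 without 1 library, and over any time point 2587 and as few as 1158. The cause of these moves was not tested.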
